A study of Mus musculus with 150 samples.

Results

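Hba-a1, Hbb-b2 and Alas2 were followed across 34 tissues of wild-type inbred mice. All probe sets whose annotation holds any of the 3 symbols were taken, which gave 6 of the 12422 probe sets on the array. Hba-a1, Hbb-b2 and Alas2 each had 1 probe set annotated to that gene alone. A further probe set was annotated to both Hba-a1 and Hba-a2, and is called Hba-a1/Hba-a2. The remaining pair was annotated to several adult beta-globin genes at once: the brighter is called adult beta-globin, and the other lay between -10.05 and 18.48 on all 148 arrays used, near or below the floor of 10.4 applied to the intensities, so it entered no test. The study hybridized total RNA to 150 one-colour arrays. The 24 neural tissues came from the strains 129, B6 and DBA, with 4 to 7 arrays a tissue, and the 10 body tissues came from 129, B6, DBA, AJ and C3H, with 1 array for each strain and tissue. Neither treatment nor transgene is named for any group, and age, sex and pooling are not given in the labels used here. All retina arrays were B6; motor cortex lacked 129, and the entorhinal and perirhinal cortices lacked B6.

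Adult haemoglobin joins alpha-globin chains, encoded by Hba-a1 and its neighbour Hba-a2, with beta-globin chains, each around a haem group. Alas2 encodes the erythroid 5'-aminolevulinate synthase, the rate-limiting first enzyme of haem synthesis in red cell precursors, while Alas1 encodes the form used by other tissues. Globin mRNA is abundant in reticulocytes, so blood left in a dissected tissue carries it, and in the mouse the spleen also makes red cells in adult life. Inbred mice carry the adult beta-globin pair in different forms: Hbb-b1 and Hbb-b2 name the pair of the diffuse haplotype, and Hbb-bs and Hbb-bt that of the single haplotype, which is the form in the reference genome. The labels give no haplotype.

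The bases just before the members' gene starts are shown so that the letters these promoters share can be read beside the tissue levels. The 4 windows below are the 250 bases before the RefSeq gene start in build GRCm38.p6, written 5′ to 3′ on the gene's strand: Hba-a1 at chr11:32283422-32283671 (plus strand), Hbb-bs at chr7:103827929-103828178 (minus strand), Hbb-bt at chr7:103813924-103814173 (minus strand) and Alas2 at chrX:150547167-150547416 (plus strand). Hbb-b2 and Hbb-b1 are named only. Capitals mark every match on either strand to GATAA, the core letters bound by GATA factors, to CACCC, the letters bound by Klf1-type factors, to CCAAT and to TATAA, with overlapping matches run together.
Hba-a1: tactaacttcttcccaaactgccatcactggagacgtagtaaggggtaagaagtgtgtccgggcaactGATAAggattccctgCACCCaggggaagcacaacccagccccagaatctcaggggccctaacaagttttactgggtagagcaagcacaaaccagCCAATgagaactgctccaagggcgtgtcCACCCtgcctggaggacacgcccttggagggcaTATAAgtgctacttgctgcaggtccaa
Hbb-bs: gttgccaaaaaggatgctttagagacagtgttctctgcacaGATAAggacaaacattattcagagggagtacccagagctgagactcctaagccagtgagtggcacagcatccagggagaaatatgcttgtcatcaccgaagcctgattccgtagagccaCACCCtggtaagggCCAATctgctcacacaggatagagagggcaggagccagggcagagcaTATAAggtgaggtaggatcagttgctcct
Hbb-bt: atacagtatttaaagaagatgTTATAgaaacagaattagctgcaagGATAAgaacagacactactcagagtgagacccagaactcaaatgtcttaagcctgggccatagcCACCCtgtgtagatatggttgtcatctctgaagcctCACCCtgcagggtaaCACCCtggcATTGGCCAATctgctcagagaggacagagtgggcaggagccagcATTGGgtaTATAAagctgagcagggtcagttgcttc
Alas2: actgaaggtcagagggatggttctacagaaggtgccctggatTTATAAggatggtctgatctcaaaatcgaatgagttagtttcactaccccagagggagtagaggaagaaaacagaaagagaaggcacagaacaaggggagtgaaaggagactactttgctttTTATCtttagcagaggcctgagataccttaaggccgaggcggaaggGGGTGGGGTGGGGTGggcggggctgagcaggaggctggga

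All 4 windows held 1 GATAA and at least 1 CACCC, read on either strand. GATAA lay 182 to 178 bases upstream in Hba-a1, 209 to 205 in Hbb-bs, 204 to 200 in Hbb-bt, and, on the other strand, 86 to 82 in Alas2. CACCC occurred 2 times in Hba-a1, 1 time in Hbb-bs, 3 times in Hbb-bt and 3 times in Alas2, where the 3 matches stand next to each other on the other strand. The globin windows each carried TATAA close to the start, at 27 to 23 bases upstream in Hba-a1, 29 to 25 in Hbb-bs and 28 to 24 in Hbb-bt. Alas2 had TATAA only far upstream, at 207 to 203, in a TTATAA that reads the same on both strands, and it had no CCAAT. These letters are common: of 32851 mouse promoter windows of this length, 22.6% held GATAA, 52% CACCC, 33.8% CCAAT and 22.8% TATAA on either strand. Over an alignment, the windows of Hba-a1 and Hba-a2 were 97.6% identical, those of Hbb-bs and Hbb-bt 70.5%, and the other pairs 47.6% to 52.7%. A match is a description of letters and not of binding.

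The deposited intensities had been brought to a common level, with a 75th percentile between 167 and 185 on every array used. The column labelled 129 hippocampus replicate 1 and that labelled DBA perirhinal cortex replicate 2 were identical, so both were left out. Most labelled tissues ranked first of the 34 for their defining markers. The exceptions were Myh4 in muscle (rank 4), Rag1 in thymus (rank 7), Hoxb8 in spinal cord (rank 19), and Ttr in liver, Adipoq in white adipose tissue, and Hoxa7 and Hoxc8 in spinal cord (rank 2 each). The labels do not say whether replicates came from separate animals, so p-values within neural tissue measure the spread between these arrays, which may be technical. Body tissue had 1 array for each strain and tissue, so p-values there measure the spread left after tissue and strain. That spread mixes array differences with tissue by strain differences. Between the classes, p-values measure the spread between tissue means. All differences below are on the log2 scale of floored intensities ± SE, and a tissue was called different at an adjusted p of 0.05 (limma, Benjamini-Hochberg over all probe sets tested) and a log2 difference of 1.

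Hba-a1 was brightest in heart. Its intensity there was 13016 in 129, 16185 in AJ, 16919 in B6, 13240.5 in C3H and 11872 in DBA. Spleen followed, with 11023, 8827, 9705, 10789 and 9916 in the same order of strains. Every heart array lay above every spleen array. Choroid plexus, which makes cerebrospinal fluid, had the next highest strain-adjusted mean, with 9596 and 6019 in the 129 arrays and 8581 and 7799 in the B6 arrays. Retina and testes were at the other end. Hba-a1 read 176, 178, 281 and 273 on the 4 retina arrays, and in testes it read 561 in 129, 158 in AJ, 252 in B6, 300 in C3H and 74.7 in DBA. From highest to lowest tissue mean the range was 66.3-fold. Most gaps between neighbours in this order were smaller than the spread of their arrays. In 3 of the 33 steps from one tissue to the next the gap was larger than the larger of the neighbours' SDs. These were from heart to spleen, from spleen to choroid plexus, and from amygdala to testes. The SDs are over arrays and still hold strain differences, so this comparison is not a test of whether tissues differ. Hba-a1/Hba-a2 ordered the tissues differently. Its strain-adjusted mean was 5042 in spleen and 4229 in heart, a gap within the spread, and choroid plexus had rank 9. Its heart array lay above the spleen array in AJ and B6 and below it in 129, C3H and DBA.

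**Figure D1:**
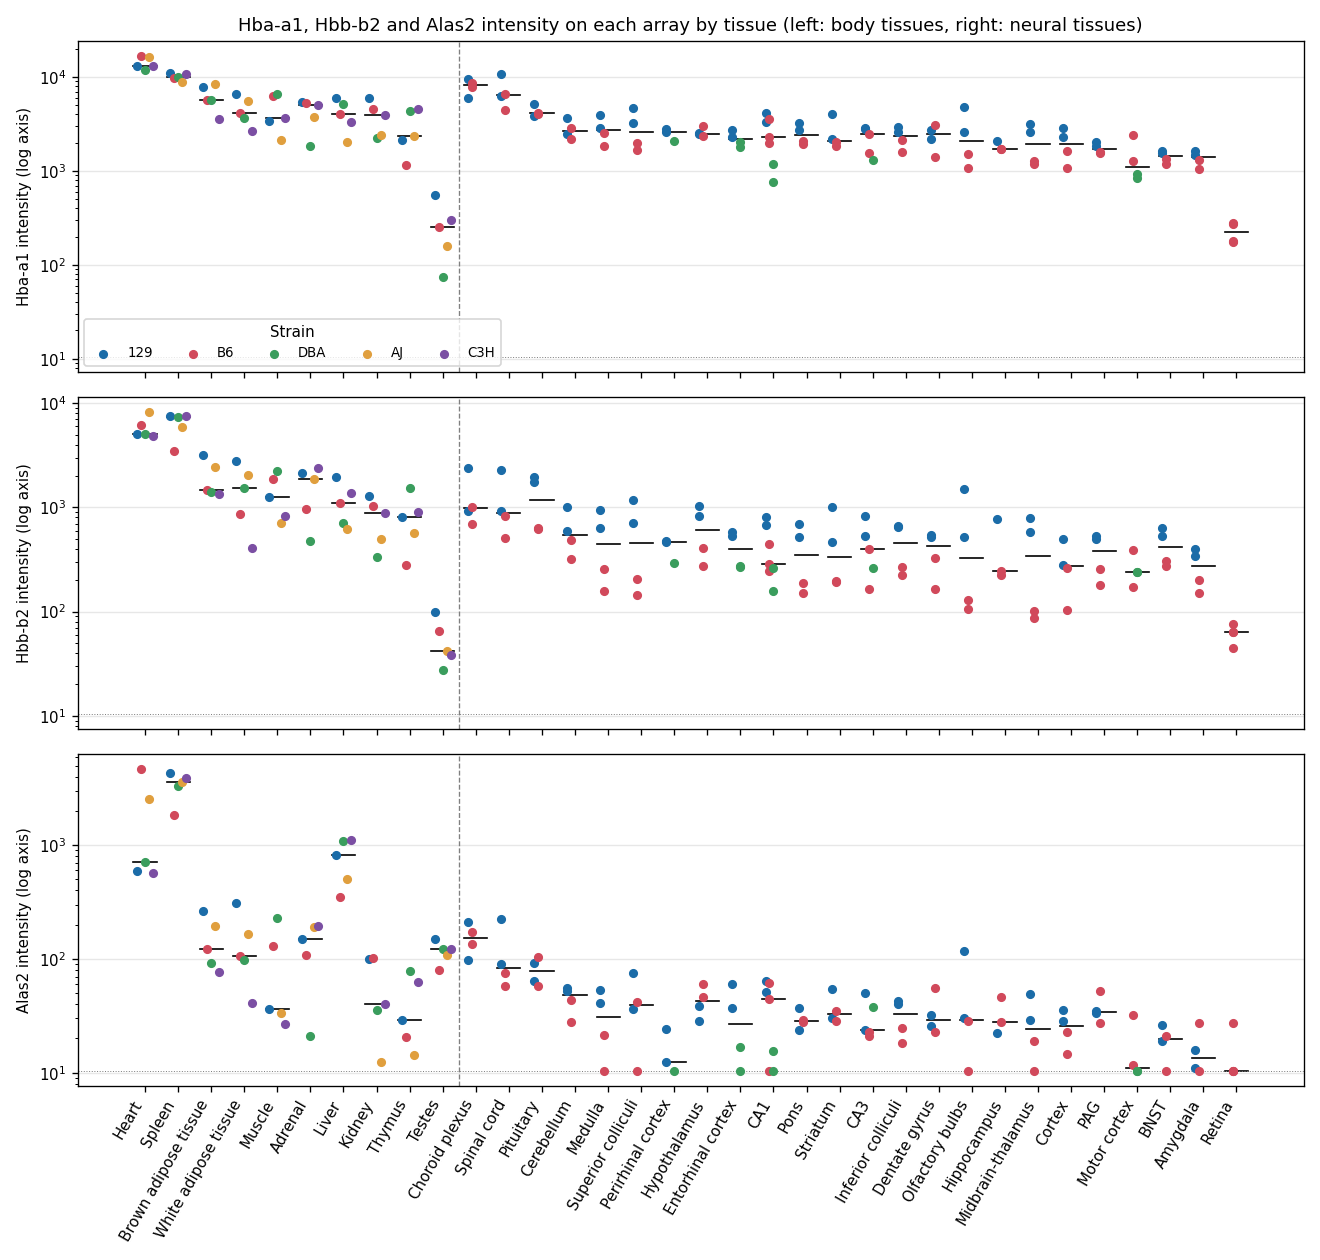
Intensity of Hba-a1, Hbb-b2 and Alas2 on each of the 148 arrays used, on log axes; each point is an array coloured by strain, black bars are tissue medians, the dotted line is the floor of 10.4 and values below it are drawn at it. Heart and spleen are high for all 3 genes, retina and testes are low for both globins, and Alas2 in neural tissue is dim, with some arrays at the floor.

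Hbb-b2 ran over 124-fold between tissue means. Spleen was highest, at 7498 in 129, 5864 in AJ, 3495 in B6, 7483 in C3H and 7321 in DBA, and heart next, at 5040, 8147, 6159, 4832 and 5062. The B6 spleen array lay below the other spleens and all the hearts. Testes were lowest, between 27.7 and 98.1, and retina read 63.3, 64.0, 44.4 and 75.8. The steps larger than the spread, which still holds strain differences, were from heart to brown adipose tissue, from cortex to retina and from retina to testes.

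Alas2 followed a different order from the globins, and its lowest tissue means lay near the floor, so no fold is given for its range. Spleen held 4308 in 129, 3609 in AJ, 1835 in B6, 3901 in C3H and 3302 in DBA. Heart was split by array, with 595 in 129, 569 in C3H and 708 in DBA against 2563 in AJ and 4634 in B6. Liver came next with 822 in 129, 500.4 in AJ, 348 in B6, 1115 in C3H and 1078 in DBA. The other body tissues lay between 12.5 and 311. Only the steps from spleen to heart and from liver to brown adipose tissue were larger than the spread. In neural tissue Alas2 had a median of 29.1 over 98 arrays and a highest value of 226, and 15 of the 98 arrays were at or below the floor, so differences among neural tissues rest on dim signal.

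Among body tissues, heart and spleen were higher than the mean of the other 9 tissues for all 5 member probe sets that entered the tests. In heart, where 11.2% of all 9018 probe sets were called higher, Hba-a1 was higher by 2.15 ± 0.28 (adjusted p = 1.00e-08), Hba-a1/Hba-a2 by 2.44 ± 0.27, Hbb-b2 by 2.59 ± 0.32, adult beta-globin by 2.03 ± 0.24 and Alas2 by 3.03 ± 0.48 (adjusted p = 7.17e-07). With the AJ and B6 heart arrays left out, a choice made after their values were seen, Alas2 was still called but fell to 1.91 ± 0.56, and Hba-a1 was 1.92 ± 0.36. In spleen, with 16.3% of probe sets higher, Alas2 was higher by 4.59 ± 0.48 (24.1-fold, adjusted p = 2.45e-11), Hba-a1/Hba-a2 by 2.73 ± 0.27, Hbb-b2 by 2.69 ± 0.32, Hba-a1 by 1.60 ± 0.28 and adult beta-globin by 1.47 ± 0.24. In a bulk sample, fewer cells of a type and less RNA per cell cannot be told apart, and the same holds here for blood in the tissue.

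Testes had little globin signal. Hbb-b2 was lower by 5.04 ± 0.32 (32.9-fold, adjusted p = 3.73e-18), Hba-a1 by 4.53 ± 0.28, adult beta-globin by 4.43 ± 0.24 and Hba-a1/Hba-a2 by 3.72 ± 0.27, against 24.9% of all probe sets called lower in testes. Alas2 did not follow: it read 150 in 129, 107 in AJ, 79.3 in B6, 122 in C3H and 123 in DBA, and its difference of -0.79 ± 0.48 missed the threshold (adjusted p = 0.13). With the log2 ratio of the Gapdh 3' and 5' control probe sets as a covariate it was called, at -1.43. That ratio, a sign of RNA integrity, was 0.15 to 0.34 in testes, in the upper part of its range of -0.42 to 0.50 over all arrays, and its part in the result was not tested.

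Liver, kidney, muscle and thymus differed in Alas2 while Hba-a1, Hbb-b2 and adult beta-globin missed the call. Alas2 was higher in liver by 2.13 ± 0.48 (adjusted p = 1.33e-04; 13.1% of probe sets higher), where Hba-a1 differed by 0.07 ± 0.28, a sign that turned without the 129 or the DBA liver array (-0.01 and -0.11). Alas2 was lower in thymus by 2.75 ± 0.48 (15.8% lower), in kidney by 2.28 ± 0.48 (10.4% lower) and in muscle by 1.75 ± 0.48 (11.4% lower). Hba-a1/Hba-a2 was also lower in thymus, by 1.04 ± 0.27, a call lost without the thymus array of AJ (-0.92), 129 (-0.98) or B6 (-0.75), under quantile normalization (-0.80) and with the Gapdh covariate (-0.99). Over the 10 body tissues, 19 of 50 member tests passed, 11 higher and 8 lower, against 26.6% of all tests in either direction, and adrenal and both adipose depots gave none.

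The contrast between Alas2 and alpha-globin was measured within arrays as log2 of Alas2 over Hba-a1, a comparison chosen after the values were seen. It is given without a test. In testes the ratio was 3.74 ± 1.07 above the mean of the other tissues (SD over strains, higher in 5 of 5) and in spleen 2.99 ± 0.55 above it (SD, 5 of 5 strains). Liver was 2.07 ± 0.91 above the others (SD, 5 of 5 strains). The ratio lay below the others in every strain in kidney (-2.23), thymus (-2.19), muscle (-1.92), brown adipose tissue (-1.29), adrenal (-1.05) and white adipose tissue (-1.01). For these tissues the mean of the others includes testes, spleen and liver. Heart lay above the others in 3 of 5 strains. The high value in testes goes with low Hba-a1, and those in spleen and liver with high Alas2. The size of this contrast depends on the alpha-globin probe set used. Hba-a1/Hba-a2 was raised more than Hba-a1 in spleen and lowered less in testes, so with it both contrasts would be smaller.

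**Figure D2:**
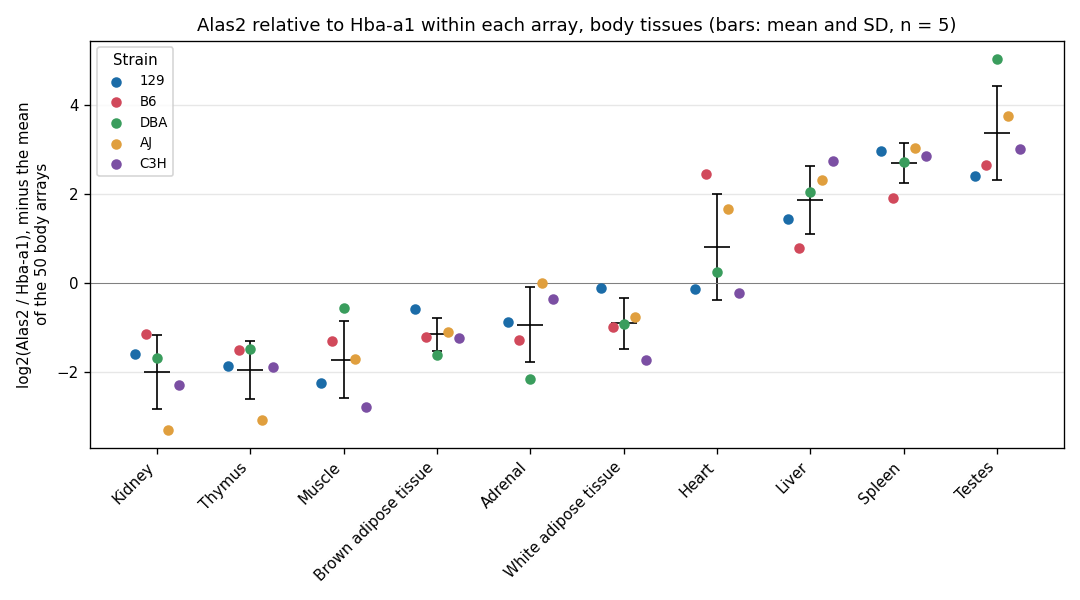
Log2 ratio of Alas2 to Hba-a1 on each of the 50 body arrays, centred on their mean; points are arrays coloured by strain, and bars give the mean and SD of the 5 strains. Testes, spleen and liver lie above 0 in every strain, while the hearts of B6 and AJ stand above those of the other strains.

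Among neural tissues, spinal cord and choroid plexus were higher than the mean of the other 23 neural tissues for all 5 probe sets. In spinal cord, where 4.34% of 8437 probe sets were called higher, Alas2 was higher by 1.64 ± 0.34 (adjusted p = 5.12e-05), Hba-a1 by 1.62 ± 0.19 (adjusted p = 1.24e-11), adult beta-globin by 1.57 ± 0.18, Hba-a1/Hba-a2 by 1.41 ± 0.18 and Hbb-b2 by 1.34 ± 0.25. The Hba-a1 arrays read 6226 and 10905 in 129 and 6631 and 4503 in B6, and Alas2 read 90.9 and 226 in 129 and 75.1 and 57.6 in B6. In choroid plexus, with 15.2% of probe sets higher, Alas2 was higher by 2.28 ± 0.34 (adjusted p = 9.15e-09), Hba-a1 by 1.87 ± 0.19, adult beta-globin by 1.73 ± 0.18, Hbb-b2 by 1.56 ± 0.25 and Hba-a1/Hba-a2 by 1.16 ± 0.18. The last call was lost without 129 replicate 1 (0.999983, just under the threshold) or B6 replicate 1 (0.96), and under quantile normalization (0.98). Pituitary, with 14.2% higher, was called for Hbb-b2 (1.498 ± 0.25) and Alas2 (1.29 ± 0.34), the latter under 2-fold when the floor was raised to the 40th percentile (0.87). The other 3 probe sets there were between 0.94 and 0.97 and under the 2-fold limit, which Hba-a1 (1.08) and adult beta-globin (1.04) passed without 129 pituitary replicate 2, and Hba-a1 (1.02) and Hba-a1/Hba-a2 (1.30) under quantile normalization.

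Retina was lower for all 5 probe sets, with 12.2% of probe sets lower. Hba-a1 was lower by 3.26 ± 0.19 (9.56-fold, adjusted p = 1.38e-26), adult beta-globin by 2.81 ± 0.18, Hbb-b2 by 2.04 ± 0.25 and Hba-a1/Hba-a2 by 1.01 ± 0.18. Alas2 was lower by 1.08 ± 0.35, but 3 of the 4 retina arrays were at the floor, and the call was lost without retina replicate 1, 2 or 3 (-0.97 each) or under a 40th percentile floor (-0.31). The Hba-a1/Hba-a2 call was lost without any of 7 single B6 arrays: retina replicate 1 (-0.99) or 3 (-0.92), or replicate 1 of dentate gyrus, motor cortex, amygdala or choroid plexus or replicate 2 of CA1 (-0.992 to -0.9998, just short of the threshold). It was also lost with the title code as a replicate block (-0.996). Since retina held only B6 arrays, its adjustment for strain comes from other tissues. Alas2 was also lower in amygdala, by 1.18 ± 0.34 (0.936% lower), and in perirhinal cortex, by 1.03 ± 0.41 (1.87% lower). The amygdala call was lost without 129 amygdala replicate 1 (-0.95) or under a 40th percentile floor (-0.41). The perirhinal call was lost without 129 perirhinal replicate 1 (-1.19) or 2 (-0.67), DBA CA3 replicate 1 (-0.93), 129 olfactory bulbs replicate 1 (-0.98) or B6 CA1 replicate 3 (-0.99). It was lost as well under a floor set at the 10th (-1.10) or 40th percentile (-0.39), with no filter on dim probe sets (-1.03), with the identical arrays kept (-0.91), in the fit of all arrays (-1.13) and without choroid plexus, pituitary and retina (-0.94), the last chosen after the values were seen. In all, 19 of 120 member tests passed in the neural tissues, 12 higher and 7 lower, against 7.35% of all tests, and 18 of the 24 tissues had none.

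Between the classes, tissue means of Alas2 were lower in the 24 neural than in the 10 body tissues by 2.85 ± 0.48 (7.21-fold, adjusted p = 6.87e-06), Hbb-b2 by 1.76 ± 0.43 and Hba-a1/Hba-a2 by 1.45 ± 0.35, against 13.6% of 9743 probe sets called lower. Hba-a1, at -1.005 ± 0.41 (adjusted p = 0.0375), stood at the limit of the call, which was lost when any of 15 of the 34 tissues was left out: brown adipose tissue, heart, spleen, liver, adrenal, muscle, white adipose tissue, retina, amygdala, BNST, cortex, hippocampus, midbrain-thalamus, motor cortex or PAG, with values over all such omissions from -1.46 to -0.79. It was lost under quantile normalization too (-0.72). Adult beta-globin, at -0.94 ± 0.38, missed it, but passed without testes (-1.39), choroid plexus (-1.02) or spinal cord (-1.01).

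Other genes of haem and red cell biology separated the tissues with high globin. In spleen, where 16.3% of all probe sets were called higher, 11 of 12 red cell membrane and enzyme genes were higher. Their median difference was 3.74 against -0.18 over all probe sets. Slc4a1, the anion exchanger of the red cell membrane, was higher by 6.14 ± 0.34, Rhag, its Rh-associated glycoprotein, by 5.92 ± 0.36 and Car1, a red cell carbonic anhydrase, by 5.65 ± 0.32. All 10 erythroid transcription factors and receptors were higher there, with a median of 3.32, among them Tal1 (4.03 ± 0.26), Klf1 (3.52 ± 0.31) and Gata1 (3.18 ± 0.30). Of 8 haem synthesis genes, 5 were higher in spleen, led by the transporter Abcb10 (2.10 ± 0.25), Ppox (1.98 ± 0.21) and Cpox (1.73 ± 0.19), and Alas1 was lower by 2.14 ± 0.14. The granulocyte list moved too (5 of 6 higher, median 3.52), as did the B cell (4 of 4, median 5.24) and T cell (4 of 4, median 3.00) lists; the part of these cells in the member differences was not tested.

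Heart gave another picture. No haem synthesis gene reached the 2-fold call there in limma's test (0 of 8), although 3 of the 8 had an adjusted p under 0.05, and the same 3 an unadjusted one; these included Alas1 (0.87 ± 0.14). Of the red cell genes 2 of 12 were higher, Ank1 (2.21 ± 0.39) and the peroxiredoxin Prdx2 (1.31 ± 0.12), and Dmtn was lower. Of all probe sets, 11.2% were higher and 8.68% lower in heart. The Ank1 probe set was also bright in muscle: it read 2853 in B6 muscle against 143 in B6 spleen. In the other strains it read 1541 to 3740 in muscle against 768 to 1566 in spleen. Of the erythroid regulators, Lmo2 was higher by 1.30 ± 0.17 and Eif2ak1 lower by 1.10 ± 0.16. Endothelial markers were higher in 7 of 9, with a median of 1.47 against -0.07 over all probe sets, including Eng (1.97 ± 0.09), Tie1 (1.97 ± 0.18) and Cdh5 (1.93 ± 0.14). Myoglobin (Mb), the oxygen-binding protein of muscle, was higher by 8.25 ± 0.47. In liver, where Alas2 was high, Cpox (2.26 ± 0.19), Alas1 (2.16 ± 0.14) and Alad (1.35 ± 0.20), the enzyme that follows the synthase, were higher. Liver secretes the haemopexin and haptoglobin that bind free haem and haemoglobin, and Hpx (8.53 ± 0.38) and Hp (4.49 ± 0.24) were higher. Of the 12 red cell genes, 7 were lower in liver, where 20.1% of all probe sets were, among them Slc4a1 (-1.08 ± 0.34), and Car1 was higher (1.66 ± 0.32).

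In testes, where 24.9% of all probe sets were lower, 7 of 9 endothelial markers were lower (median -1.77 against -0.21 over all probe sets), led by Eng (-3.09 ± 0.09), as were 5 of 8 haem synthesis genes, among them Cpox (-2.49 ± 0.19), and 7 of 12 red cell genes. In retina, with 12.2% of all probe sets lower, 4 of 8 endothelial markers were lower, Eng (-2.41 ± 0.13), Tie1 (-2.22 ± 0.13), Cdh5 (-1.97 ± 0.19) and Cldn5 (-1.42 ± 0.14), and Kdr was higher by 2.29 ± 0.23. Choroid plexus had Eng (2.23 ± 0.12), Tie1 (1.54 ± 0.13) and Kdr (1.32 ± 0.22) higher and Cldn5 lower by 1.71 ± 0.14. Spinal cord had no endothelial marker past both limits in limma's test (0 of 8). Of these, 3 had an unadjusted and also an adjusted p under 0.05, each below 2-fold. The granulocyte genes S100a8 (1.79 ± 0.29) and Camp (1.55 ± 0.32) were higher there with the globins, where 4.34% of all probe sets were. Their list also holds S100a9, Ngp, Ltf, Lcn2, Mpo and Elane, and nothing is read from them for the list as a whole. The part of vessels or of white cells in the globin differences was not tested.

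The B6 spleen array stood apart in red cell genes, which was noticed after the values were seen and is given as a description of 1 array. It was the lowest of the 5 spleens for 12 of 12 red cell genes (median 3.09 below the mean of the other 4 on the log2 scale), 9 of 10 erythroid regulators and 7 of 8 haem synthesis genes, against 21.3% of all probe sets. Klf1 read 147 there against 892 to 1677 in the other spleens, Gata1 24.4 against 169 to 314 and Slc4a1 490 against 2449 to 3019. It was also lowest for 5 of 6 granulocyte genes, and for none of 4 B cell, 4 T cell or 9 endothelial genes. The members differed among themselves on this array. On the log2 scale Alas2 fell short of the mean of the other 4 by 1.04 and Hbb-b2 by 1.00. Hba-a1/Hba-a2 differed by -0.41, Hba-a1 by -0.06 and adult beta-globin by -0.01. Alad read 191 against 1893 to 2781, but it was also low in B6 in heart (363 against 621 to 1435) and in muscle (210 against 572 to 771).

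**Figure D3:**
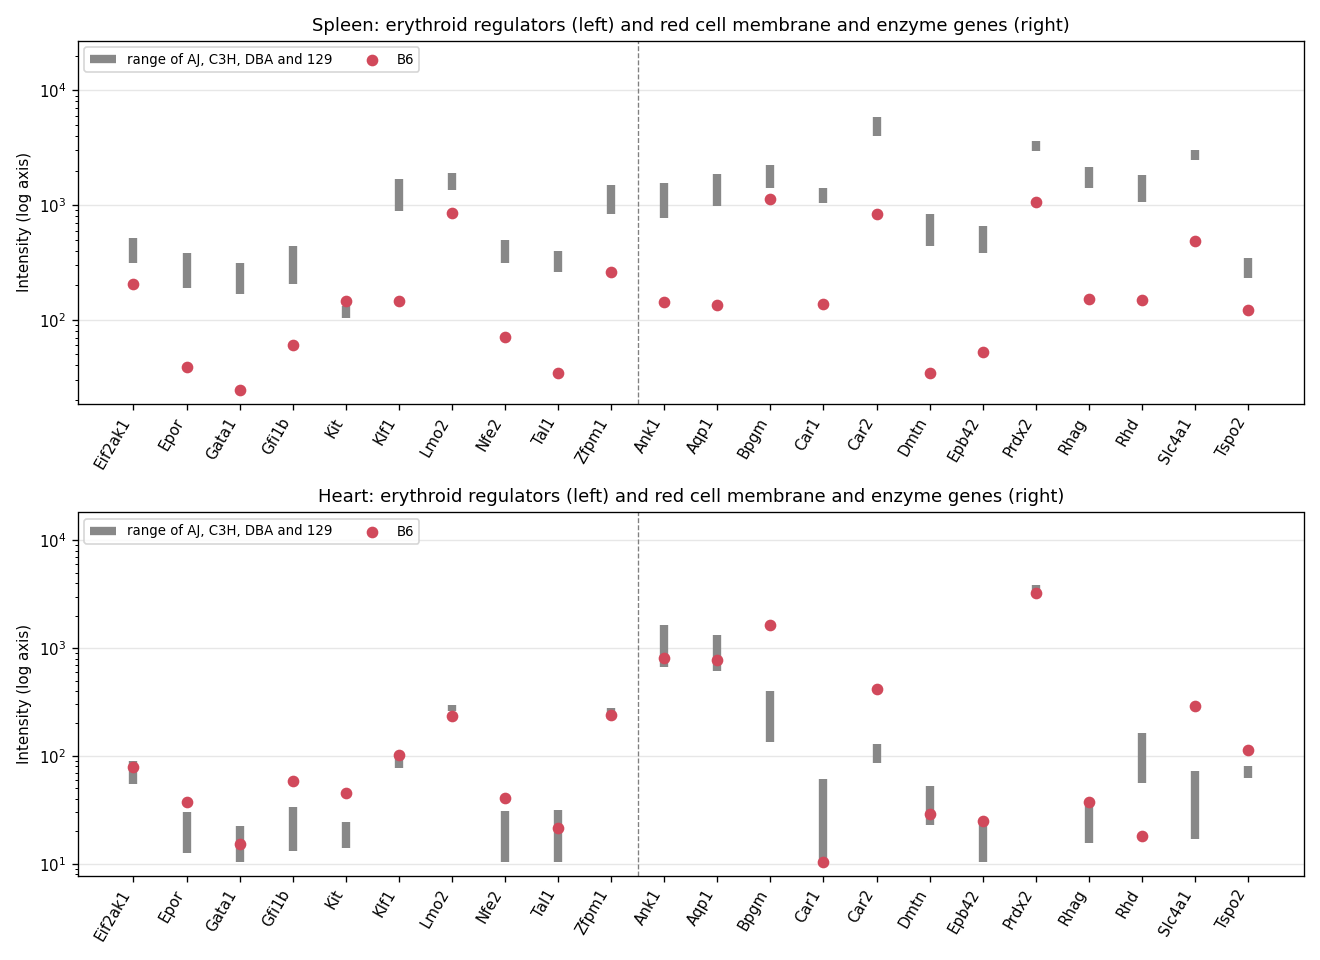
Intensity of 10 erythroid regulators and 12 red cell genes in spleen (top) and heart (bottom), on log axes; grey bars span the arrays of AJ, C3H, DBA and 129, and red points are the B6 array. The B6 spleen lies below the other strains for all genes shown except Kit. The B6 heart lies above them for Bpgm, Car2 and Slc4a1, among others, and below them for Rhd and Lmo2.

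The B6 heart, the array with the highest Alas2, was highest of the 5 hearts for 6 of 12 red cell genes, 5 of 10 erythroid regulators, 5 of 9 endothelial and 4 of 6 granulocyte genes, against 19% of all probe sets. Bpgm, the red cell enzyme that makes bisphosphoglycerate, read 1636 against 135 to 403, Slc4a1 288 against 16.9 to 72.0 and Car2 415 against 86.1 to 129. Of the regulators, Gfi1b read 58.0 against 13.2 to 33.3, Kit 45.7 against 14.0 to 24.6 and Nfe2 40.4 against 10.4 to 30.6. Epor read 37.6 against 12.5 to 30.0 and Klf1 102.3 against 77.4 to 101.7. Apart from Klf1 these signals were dim, within or below the range of array medians, 38.5 to 68.2. Klf1 was nearly tied, as was Epb42 among the red cell genes (25.0 against 10.4 to 24.8). Gata1, at 15.1, lay within the range of the other hearts, 10.4 to 22.3. Some genes of these lists were lowest in the B6 heart. Rhd read 18.1 against 56.6 to 162.5 and Lmo2 237 against 262 to 297, while Prdx2 was nearly tied (3272 against 3275 to 3844). On the B6 heart array Alas2 was 2.39 above the mean of the other 4 hearts, Hba-a1/Hba-a2 0.995 above it and Hba-a1 0.33 above it. The AJ heart, with Alas2 1.32 above, was highest for 2 of 12 red cell genes and 0 of 10 erythroid regulators, against 21.9% of all probe sets. The B6 muscle array was highest for 6 of 6 granulocyte genes (median 3.66 above), 4 of 4 T cell genes and 5 of 12 red cell genes, against 21.8% of all probe sets. It was highest for 2 of 10 erythroid regulators, 0 of 9 endothelial and 0 of 4 B cell genes. Hba-a1 was 0.79 and Alas2 1.31 above the other 4 on this array. The part of granulocytes, T cells or red cells was not tested.

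Hbb-b2 was chosen for its difference between 129 and B6, so that difference is described without a test, and the multi-gene adult beta-globin probe set is treated alike. Over the 20 neural tissues with both strains (39 arrays of 129 and 41 of B6), Hbb-b2 was higher in 129 by 1.55 ± 0.11 (2.94-fold). Over all neural arrays used (43 of 129 and 47 of B6) the lowest, median and highest intensity were 282, 643 and 2415 in 129 and 44.4, 226 and 1019 in B6. The 129 mean was higher in 20 of 20 tissues, a pattern held by 0.869% of probe sets, and the arrays did not overlap in 19 of 20, held by 0.422%; nothing is read from these counts because the rule used this contrast. The difference was smallest in choroid plexus (0.84), where the strains overlapped, and greatest in olfactory bulbs (2.90), with 1492 and 518 in 129 against 130 and 107 in B6. In midbrain-thalamus the arrays read 583 and 791 in 129 against 87.5 and 102 in B6, and in striatum 470 and 1020 against 192 and 198. Adult beta-globin was higher in 129 by 0.65 ± 0.08, again in 20 of 20 tissues, with no overlap in 16 (1.14% of probe sets had none in at least 16).

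Alpha-globin and Alas2 could be tested. Hba-a1 was higher in 129 by 0.54 ± 0.08 (limma adjusted p = 3.40e-08, 18 of 20 tissues), Hba-a1/Hba-a2 by 0.43 ± 0.08 (limma adjusted p = 1.31e-05, 17 of 20) and Alas2 by 0.52 ± 0.15 (limma adjusted p = 0.00543, 13 of 20). All 3 differences were under the 1.5-fold needed for a call between strains, which 0.695% of 8058 probe sets passed with 129 higher. These p-values take the arrays as independent. Title codes recur across tissues of a strain, and the labels do not say what the codes name. With the title code as a block, the consensus correlation of this fit was 0.15. Of the red cell genes none of 7 was called by limma between 129 and B6 (median difference 0.08), of the erythroid regulators none of 7 and of the endothelial markers none of 8. Differences below the 1.5-fold limit had an adjusted p under 0.05, and an unadjusted one, in 4 of the red cell genes, 1 of the regulators and 2 of the endothelial markers. Alad was higher in 129 by 0.90 ± 0.04 and Abcb10 lower by 0.89 ± 0.09, with no other haem synthesis gene of 7 past the threshold.

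**Figure D4:**
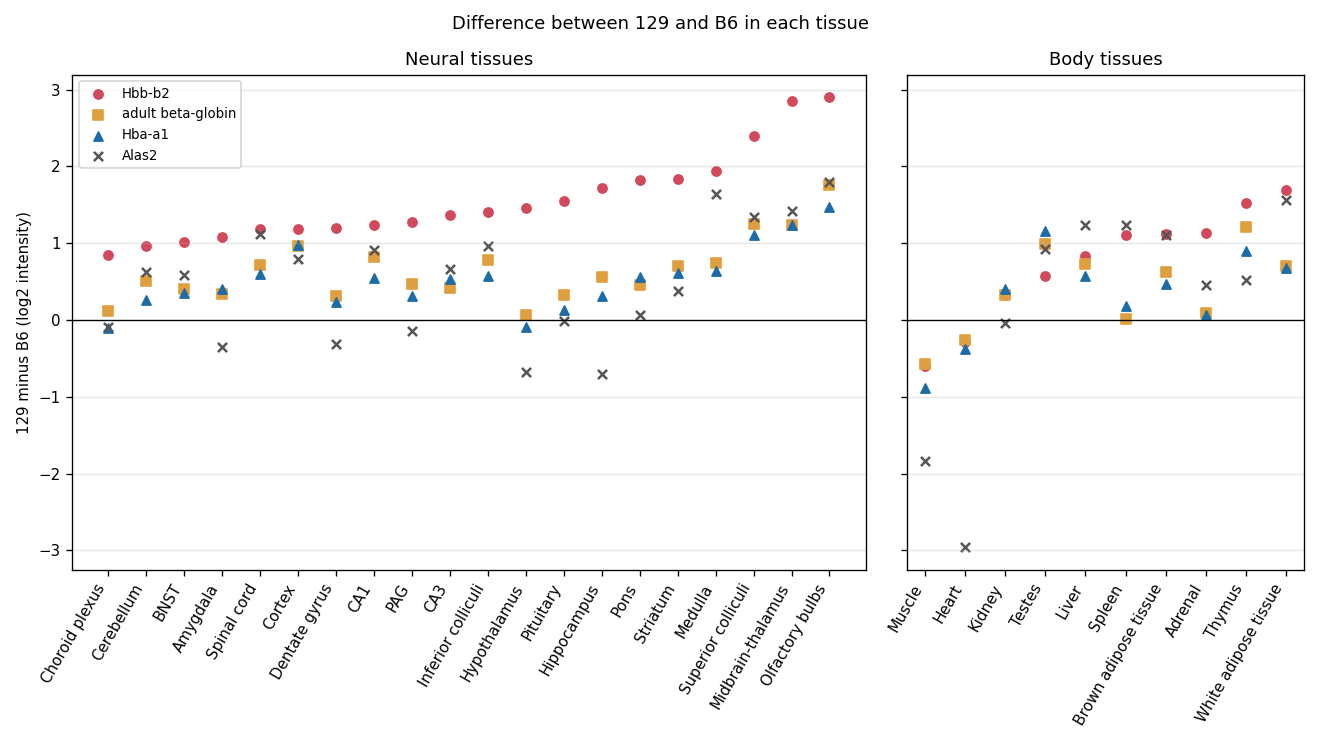
Difference between the mean log2 intensities of 129 and B6 in each tissue for Hbb-b2, adult beta-globin, Hba-a1 and Alas2; neural tissues at left and body tissues at right, ordered by Hbb-b2. Hbb-b2 is above 0 in all 20 neural tissues, from 0.84 to 2.90, and below 0 in muscle and heart.

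To set the strain difference of Hbb-b2 apart from that of alpha-globin, the log2 ratio of Hbb-b2 to Hba-a1 was taken within each array, again after values were seen and as a description. In neural tissue 129 exceeded B6 in this ratio by 1.03 ± 0.38 (SD over 20 tissues; 2.04-fold), in 20 of 20 tissues, from 0.21 in cortex to 1.61 in midbrain-thalamus. DBA exceeded B6 by 0.76 ± 0.13 (SD, 3 of 3 neural tissues). In CA1, for example, Hba-a1 read 1194 and 767 in DBA and 3592, 1971 and 2310 in B6, while Hbb-b2 read 262 and 157 in DBA and 442, 284 and 245 in B6. The corresponding ratio of adult beta-globin to Hba-a1 differed between 129 and B6 by 0.11 ± 0.12 (SD, 15 of 20 tissues), and that of Alas2 to Hba-a1 by -0.03 ± 0.50 (SD, 11 of 20 tissues positive).

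**Figure D5:**
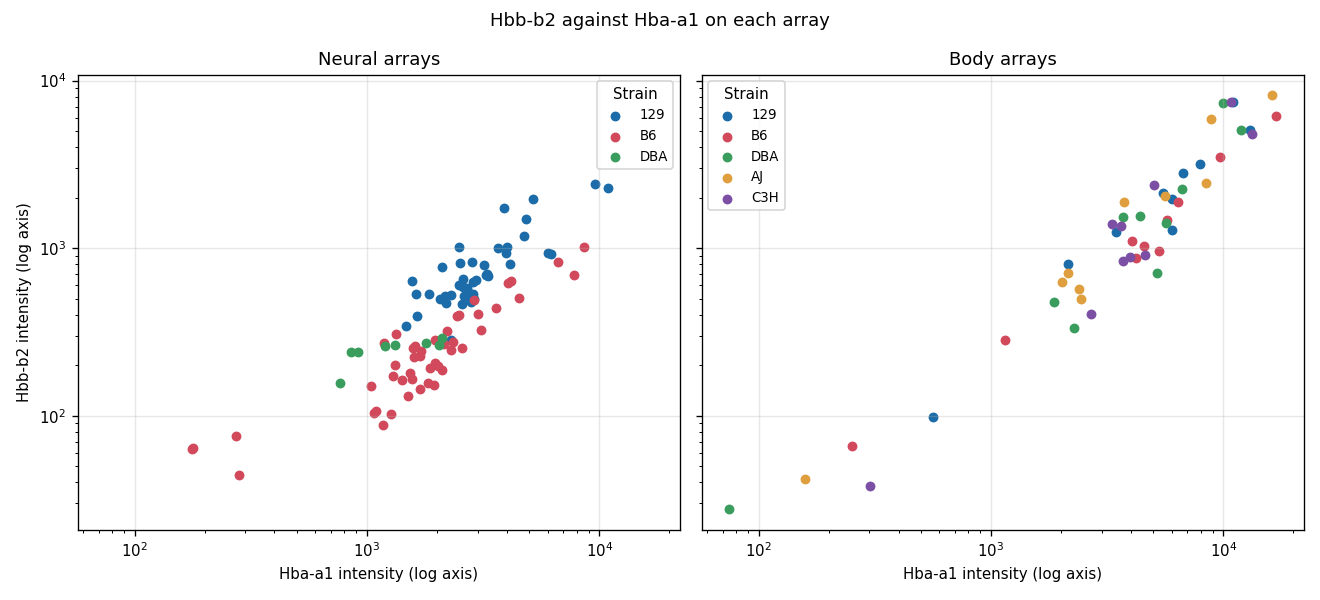
Hbb-b2 intensity against Hba-a1 intensity on each neural array (left) and body array (right), on log axes, coloured by strain. At a given Hba-a1 the neural arrays of 129 lie above most of those of B6, while the body arrays of the 5 strains intermingle more.

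In the body tissues Hbb-b2 was higher in 129 than in B6 by 0.74 ± 0.30, in 8 of 10 tissues, and lower in heart (-0.29) and muscle (-0.59). The ratio to Hba-a1 differed by 0.43 ± 0.53 (SD, 8 of 10 tissues) for 129 against B6, 0.40 ± 0.51 for AJ, 0.23 ± 0.64 for DBA and 0.12 ± 0.73 for C3H, each against B6. In 3 body tissues 129, AJ, C3H and DBA all lay above B6 in this ratio: in spleen by 0.92, 0.88, 0.95 and 1.04, in adrenal by 1.08, 1.45, 1.37 and 0.48, and in heart by 0.09, 0.47, 0.0037 and 0.23, in this order. B6 thus had the lowest of the 5 ratios in 3 of the 10 tissues, C3H in 4 and DBA in 3. Among DBA, AJ and C3H the mean ratio differed by less than its spread over the 10 tissues: AJ minus C3H was 0.27 ± 0.57 (SD), AJ minus DBA 0.17 ± 0.58 (SD) and C3H minus DBA -0.11 ± 1.03 (SD). Hbb-b2 itself differed among them by 0.05 to 0.14 ± 0.30 (limma adjusted p = 0.857 to 0.985). Across the 10 pairs of strains no tested member was called by limma (0 of 36 tests, of which 2 had an unadjusted p under 0.05, both for Hba-a1 with 129 higher than AJ or DBA). Over all probe sets the share called was 3.57% for 129 and B6, 2.96% for 129 and AJ, 1.45% for 129 and C3H, 1.7% for 129 and DBA, 7.86% for AJ and B6, 1.69% for C3H and B6, 1.91% for DBA and B6, 0.743% for AJ and C3H, 1.55% for AJ and DBA and 0% for C3H and DBA. Between 129 and B6, Hba-a1 differed by 0.31 ± 0.26 and Alas2 by 0.22 ± 0.45. The part of the beta-globin haplotype in these differences was not tested.

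The difference between 129 and B6 was also set side by side in neural and body tissue. For Hbb-b2 it was larger in neural tissue by 0.81 ± 0.25, given without a test because the rule used the 129 and B6 values of this gene. That value was 0.66 without the 129 or the B6 muscle array, 0.70 without the 129 or the B6 heart array and 0.52 without both tissues, a choice made after the values were seen. Adult beta-globin, likewise untested, differed by 0.26 ± 0.18. Of the 3 probe sets that could be tested, none passed limma's interaction test (0 of 3, of which 1 had an unadjusted p under 0.05), a test that 16.6% of 9665 probe sets passed. Hba-a1 differed by 0.22 ± 0.18 and Alas2 by 0.30 ± 0.36. The Hba-a1/Hba-a2 interaction of 0.49 ± 0.20 passed when any of 7 arrays was left out: spleen, thymus or white adipose tissue of 129 or B6, or 129 choroid plexus replicate 2 (0.53 to 0.59). Within the nervous system, variation of the difference between 129 and B6 was tested among 19 tissues, those where both strains had 2 or more arrays, for the members that could be tested: Hba-a1, Hba-a1/Hba-a2 and Alas2 did not pass (0 of 3, F from 1.14 to 1.81, limma adjusted p = 0.15 to 0.505, with 0 of 3 under 0.05 unadjusted), while 20.6% of 8054 probe sets did. The spread of Hbb-b2 between tissues, from 0.84 to 2.90, was not tested.

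The members tracked each other across the 34 tissue means, given as a description of points that share arrays. Hba-a1 and adult beta-globin correlated at r = 0.996, Hba-a1 and Hbb-b2 at r = 0.931, and Hba-a1 and Alas2 at r = 0.638 (0.775 over the 24 neural and 0.467 over the 10 body tissues). After tissue and strain were removed, the residuals over the 98 neural arrays still correlated, at 0.918, 0.818 and 0.594 for the same pairs. Arrays of a tissue and strain that were high in alpha-globin thus tended to be high in beta-globin and Alas2 too.

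The genes most like the members across the 34 tissues were then ranked by Pearson's r of tissue means, outside the members. For Hba-a1 they were Eng (0.848), Rsu1 (0.827), Cdc42 (0.823), Hba-ps3 (0.813), Anxa6 (0.812), Tie1 (0.804), Cr1l (0.800) and Lage3 (0.796). Eng and Tie1 encode endothelial receptors. For Hbb-b2 they were Hba-ps3 (0.911), Cr1l (0.863), Myh9 (0.858), Tpm4 (0.854), Eng (0.852), Il6st (0.841), Ube2r2 (0.839) and B2m (0.838). Hba-ps3 is annotated as an alpha-globin pseudogene, whose signal may not be separable from alpha-globin itself. For Alas2 they were Ube2l6 (0.868), Klf2 (0.867), Rsad2 (0.848), Mrc1 (0.827), Tent5c (0.824), Bgn (0.823), 1810058I24Rik (0.821) and Alad (0.821), the last the enzyme that follows Alas2 in haem synthesis. From the residuals over the neural arrays, Hba-ps3 came first for all 4 globin probe sets (0.528 to 0.673), followed for Hba-a1 by the ribosomal protein gene Rps19 (0.507) and for Hbb-b2 by Sprr1b (0.531). Alas2 was led by Cd302 (0.492) and Cyba (0.466).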

How the data were processed

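Total RNA, extracted per the labels with TRIzol and an RNeasy kit, was hybridized as biotinylated target. The authors deposited 1 linear intensity per probe set and array, with 5.97% of values below 0; how software, background and scale were set is not given in the sources used here. Precision is limited by the number of arrays. Of 12488 probe sets, 66 controls were left out; 10833 of the rest carried 1 symbol in the platform's annotation, 396 several and 1193 none.

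Intensities were raised to a floor of 10.4 (the 20th percentile), not scaled further, and expressed as log2. Tests took in probe sets that were, in at least 1 tissue of the fit, above the median of all log2 values (5.73 over all arrays) after adjustment for strain. The tests were limma's (version 3.58.1, R 4.3.3), its prior variance following the mean, with Benjamini-Hochberg adjustment inside each contrast: tissues on arrays with strain as a term, classes on tissue means, strains with tissue as a term. Strains needed 1.5-fold and interactions the adjusted p alone. The fits were tested on simulated data.

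The members, the gene lists and the rule for named genes (the members, 8 nearest probe sets by correlation in each ranking, and called list genes) were chosen with earlier results of these data known. List genes came from probe sets with 1 symbol. Alternatives varied the floor, scaling, filter, the identical arrays, a Gapdh covariate, the title code as a block, the arrays fitted and each array or tissue.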

Additional observations from a re-analysis of the deposited data

Results flagged for a closer look

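Extreme arrays were looked for in 11 groups of 4 or 5 arrays for each of 5 probe sets, which made 55 looks. In these 4 were found, close to the share of about 1 in 20 that chance gives. The looks are not independent, since the probe sets tracked each other across arrays. Of the 4 extreme values, 3 came from 1 array. The DBA adrenal array was low for Hba-a1/Hba-a2 (576.75 against 1128 to 1390 in the other strains), for adult beta-globin (2315.32 against 4590 to 5853) and for Alas2 (20.89 against 109 to 196). In B6 retina, 1 array had an Alas2 intensity of 27.47 while the other 3 lay between -16.99 and 0.99, below the floor. The search used floored values, so these 3 were equal and any remaining value above the floor would have been flagged. The share that chance gives does not hold for this look, and nothing is read from it.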

How the results depend on the processing

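Of 518 single values recomputed under alternatives other than leaving out an array or tissue, 494 were scored as unchanged. A tested difference had to keep its direction and its side of the threshold, and a test of variation among tissues its side alone. A difference given without a test had to keep its direction and move by less than its SE. The 518 also hold 5 comparisons of nearest genes, all scored as moved. The title code was not shown to pair samples: taken as a replicate block, its consensus correlation was 0.16 for the neural tissue fit and 0.04 for the body fit. With this replicate block 18 neural tissue calls, 19 body calls and 0 interaction calls were made, and 1 call changed, Hba-a1/Hba-a2 in retina (-0.996). With the floor at the 10th percentile, 1 member passed between 129 and B6 in neural tissue, Alas2, against 0. Directions turned for Hba-a1 in liver under quantile normalization (-0.55), for Hba-a1/Hba-a2 between 129 and B6 in body tissue with the Gapdh covariate (0.0239), and for the interactions of Hba-a1 (-0.0146) and Alas2 (-0.35) without heart and muscle; the cause was not tested. Alas2 in retina, amygdala and perirhinal cortex was -0.31, -0.41 and -0.39 with the floor at the 40th percentile, which takes in most of its neural signal. Quantile normalization moved Hba-a1 between the classes to -0.72. With 1 array or tissue left out at a time, member calls ranged from 3 to 5 between the classes, 17 to 21 in neural and 18 to 20 in body tissues and 0 to 1 for the interaction with class. Directions also turned in these ranges: Alas2 in the interaction, from -0.0496 to 0.45; Hba-a1/Hba-a2 between 129 and B6 in body tissue, from -0.21 to 0.0716; Hba-a1 in liver, from -0.11 to 0.26; and Hbb-b2 for AJ minus C3H, from -0.16 to 0.18, AJ minus DBA, from -0.0344 to 0.33, and C3H minus DBA, from -0.0859 to 0.30. Using B6 arrays only, 4 or 5 of the 8 nearest genes of a member were shared with the ranking over all arrays.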
